A study of Caenorhabditis elegans with 6 samples.

Results

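The histone genes of Caenorhabditis elegans were followed in RNA drawn from A-class motor neurons of wild-type and unc-37 larvae. Members were the genes with a his, hil, htz or htas symbol that a probe set of the array names alone, each read at its brightest probe set over all arrays. This gave 36 genes of 17118 measured: 19 core histone genes of the classes H2A, H2B, H3 and H4, 8 variants and 9 linker histone (H1) genes. The RefSeq gene table of assembly WBcel235 holds 82 histone genes under these symbols, and the other 46 are named on the array only by probe sets that name several genes at once. Classes follow the standard naming of worm histone genes.

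Both groups were L2 larvae grown at 25 °C, and in both, the unc-4 promoter drove a FLAG-marked form of PAB-1, which holds mRNA by its poly(A) tail, in the DA and VA neurons, and transcripts bound to it were recovered through FLAG. Of the 6 arrays, 3 came from the wild-type strain N2 and 3 from unc-37(e262) mutants, which are mutant throughout the animal and not in these neurons alone. UNC-37 is the worm Groucho protein, a corepressor that the homeodomain protein UNC-4 recruits. The comparison asks which transcripts differ in level when unc-37 is mutant. Per the labels the arrays are biological replicates, and whether each came from a separate culture is not given, so p-values measure the spread between these arrays. The array numbers run from 73 to 85 in wild type and from 89 to 98 in unc-37, so that any effect of their order and the genotype cannot be told apart.

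Core histones form the protein spool of the nucleosome, around which DNA winds as a pair of each of H2A, H2B, H3 and H4, while H1 binds the DNA between spools. In animals most core histone genes are copied in clusters and are read mainly while DNA replicates, and their messages end in a stem-loop and not in a poly(A) tail. Variants such as H3.3 and H2A.Z are read at all times, also in neurons that no longer divide, and their messages carry poly(A) tails. The RNA measured here was recovered through a poly(A)-binding protein, so a level stands for what that route brought down. The copies of a core class are nearly the same in sequence, and 15 of the 19 core members are read by a probe set of the kind ending in _x_at, which can also bind related transcripts. Their values therefore overlap in source and are not 19 separate measurements.

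Levels are log2 intensities of the authors' normalised values, and a change is unc-37 minus wild type with its standard error (SE), n = 3 arrays per group here and throughout. A gene was called at a Benjamini-Hochberg adjusted p below 0.05 by limma over all 22548 probe sets. Median linear intensities per array were 50.1 to 52.4, and precision is limited by there being 6 arrays. The A-class and cholinergic markers were present, with 9 of 9 above the median gene of wild type. Markers of muscle, intestine and hypodermis were above it as well in 10 of 11, 9 of 10 and 9 of 10 genes, and germline markers in 9 of 16. Transcripts known from muscle, intestine and hypodermis were thus among the RNA measured. The germline count is close to what any set of genes would give against the median gene, so it does not show germline RNA. Enrichment over whole-animal RNA was not tested.

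All 19 core histone genes had a change above 0, from 0.07 to 0.60, with a median of 0.32, but only 3 of them rose by the test: his-4 and his-62, which encode H2B, and his-68, which encodes H2A. Over all 17118 genes the median change was -0.01, 46.6% lay above 0 and 3.94% were called higher. No histone gene was called lower by limma at its brightest probe set, where 2.81% of all genes were, although 2 linker genes were lower at an unadjusted p below 0.05. At that unadjusted level 12 of the 19 core genes were higher and none lower, against 11.5% and 9.91% of all genes. In 13 of the 19 every unc-37 array lay above every wild-type array, which held for 12.6% of all genes, and in the other 6 the groups overlapped. Among the 7143 genes within the range of levels of the core members, the median change was 0.05, 57% lay above 0, 7.84% were called higher, 21.4% were higher at an unadjusted p below 0.05 and 21% were higher without overlap. In these samples of many cells, a change in how many cells of a type were present and one in RNA per cell cannot be told apart. The lower share of called genes among variants (0 of 8) and linker histones (0 of 9) was not tested against that of the core genes.

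**Figure D1:**
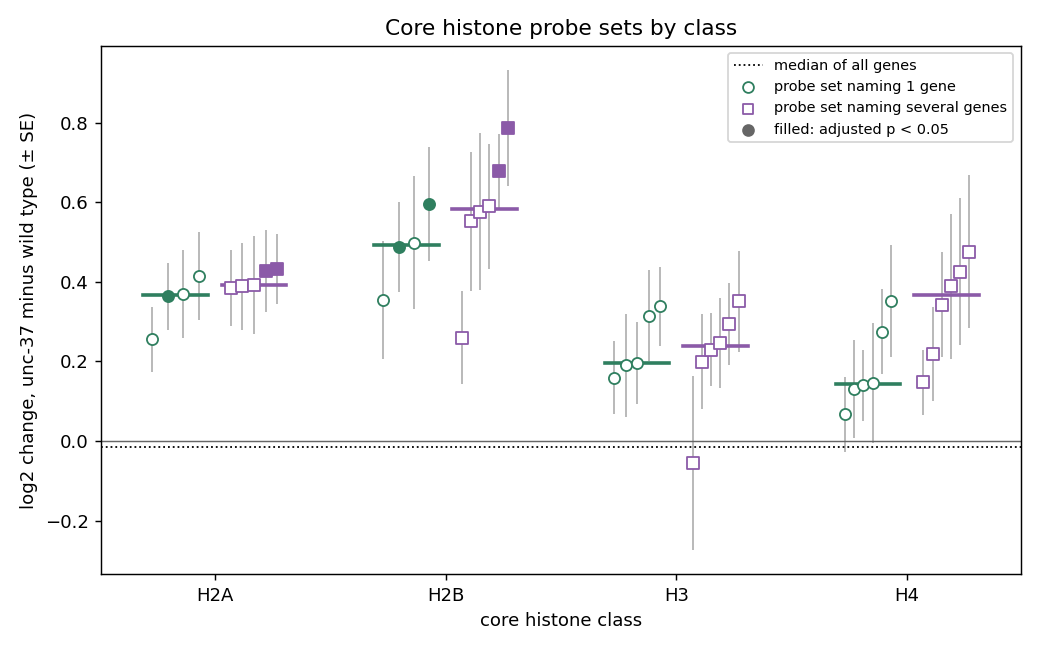
Log2 change between unc-37 and wild type (vertical axis, ± SE) of each core histone probe set by class; circles name 1 gene, squares name several, filled symbols had an adjusted p below 0.05, thick lines are medians and the dotted line is the median of all genes. H2B probe sets reach the highest changes, up to 0.79, and 1 H3 probe set, at -0.06, is the only one below 0.

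Among the core genes, H2B gave the highest changes. his-4 (probe set 172824_x_at) stood at 6.12, 6.16 and 6.02 in the wild-type arrays and at 6.56, 6.49 and 7.03 in the unc-37 arrays. The groups did not overlap, and replicate 3 of unc-37 lay above the other 5 arrays. Its change was 0.60 ± 0.14 SE, or 1.51-fold (limma adjusted p = 0.0483). his-62 (172702_x_at) stood at 7.45, 7.77 and 7.64 in wild type and at 8.07, 8.00 and 8.25 in unc-37. Again every unc-37 array was above every wild-type array, with a change of 0.49 ± 0.11 SE, or 1.40-fold (limma adjusted p = 0.0420). his-39 was not called at 0.50 ± 0.17 SE (limma adjusted p = 0.130), and its unc-37 levels of 7.14, 6.95 and 7.61 all lay above the wild-type levels of 6.69, 6.88 and 6.63. his-41, the H2B member on a probe set with a plain name, overlapped between the groups, with 9.93, 9.63 and 9.47 in wild type and 9.79, 10.15 and 10.15 in unc-37 (change 0.35 ± 0.15 SE, limma adjusted p = 0.222).

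Changes of the 4 H2A genes lay between 0.26 and 0.41. his-68 (172778_x_at) stood at 8.11, 8.13 and 8.11 in wild type and at 8.51, 8.40 and 8.53 in unc-37. The wild-type arrays differed by an SD of 0.0087, the unc-37 arrays by one of 0.067, and the groups did not overlap. The change was 0.36 ± 0.08 SE, or 1.29-fold (limma adjusted p = 0.0413). The other 3 H2A members, his-3, his-35 and his-61, were not called, with changes of 0.37, 0.41 and 0.26 (limma adjusted p = 0.0962, 0.0656 and 0.116). In each of them the unc-37 arrays were all above the wild-type arrays. his-35, on a probe set with a plain name, read 8.86, 8.84 and 8.95 in wild type and 9.47, 9.32 and 9.10 in unc-37, with replicate 3 here the lowest unc-37 array.

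None of the 5 H3 and 6 H4 genes was called by limma, though 2 of each had an unadjusted p below 0.05. H3 changes lay between 0.16 and 0.34, with his-32 at the top (0.34 ± 0.10 SE, limma adjusted p = 0.0896). his-32 read 8.41, 8.45 and 8.23 in wild type and 8.61, 8.71 and 8.79 in unc-37, without overlap. his-2, his-6, his-42 and his-59 had changes of 0.32, 0.20, 0.19 and 0.16. Of these, his-42 overlapped between the groups and the other 3 did not. H4 changes lay between 0.07 and 0.35, and in 4 of 6 genes the groups overlapped. his-1 read 8.82, 8.60 and 8.63 in wild type and 9.12, 8.74 and 9.24 in unc-37, where replicate 2 fell within the wild-type range (change 0.35 ± 0.14 SE, limma adjusted p = 0.203). his-37 read 10.77, 10.56 and 10.59 in wild type and 10.91, 10.78 and 11.06 in unc-37, without overlap (change 0.28 ± 0.11 SE, limma adjusted p = 0.193). his-31, his-38, his-64 and his-67 had changes of 0.07 to 0.15. The medians were 0.49 for H2B, 0.37 for H2A, 0.20 for H3 and 0.14 for H4, and the differences between classes were not tested.

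**Figure D2:**
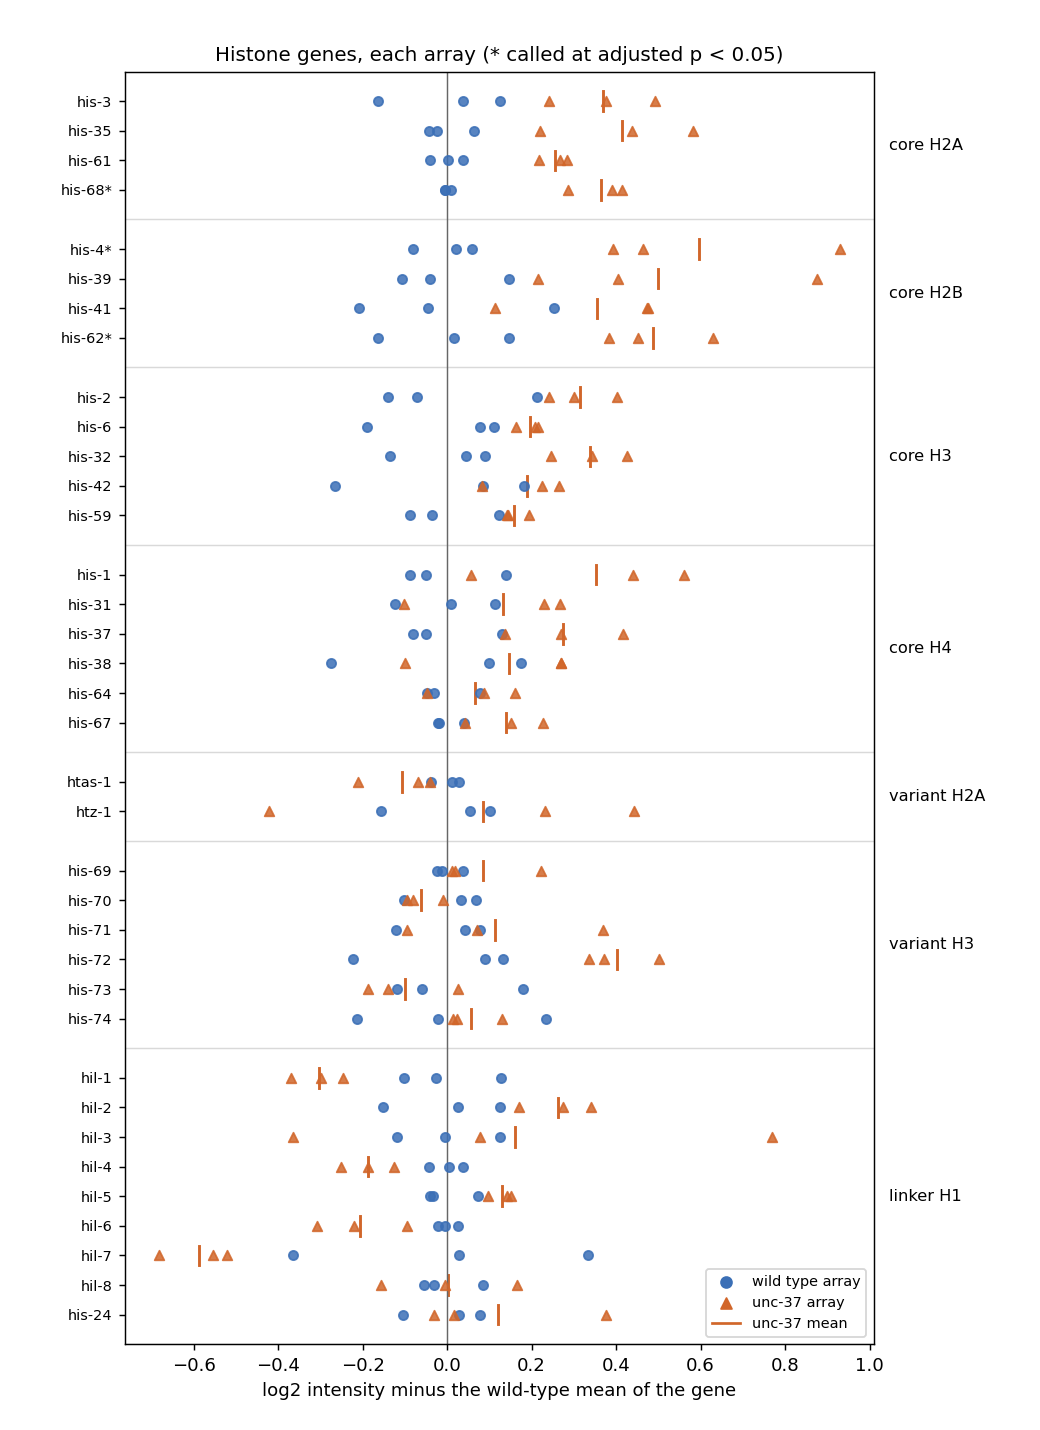
Log2 intensity of each of the 36 histone genes in each array, less the wild-type mean of that gene (horizontal axis), by class; circles are wild-type arrays, triangles unc-37 arrays, and short bars the unc-37 mean. The unc-37 means of all 19 core genes lie to the right of 0, while those of the 9 linker genes lie on both sides, from -0.59 for hil-7 to 0.26 for hil-2.

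The arrays did not contribute evenly. In 15 of the 19 core genes unc-37 replicate 3 was the highest of the 6 arrays, and in 13 of them wild-type replicate 3 was the lowest. The median over core genes of the difference from the wild-type mean was 0.27, 0.21 and 0.40 in unc-37 replicates 1, 2 and 3, and 0.04, 0.06 and -0.09 in the wild-type arrays. For H4 alone it was 0.25, -0.0027 and 0.27 in unc-37, so that replicate 2 stood at the wild-type level. The calls changed when single arrays were left out, which also leaves the test fewer arrays. No histone gene was called higher when any one of the 3 wild-type arrays, or replicate 1 of unc-37, was left out. The share of all genes called higher, 3.94% with all arrays, was then 2.33%, 1.62% and 4.74% without wild-type replicates 1, 2 and 3. Without replicate 1 of unc-37 it was 1.77%. Leaving out unc-37 replicate 2 kept only his-4 (limma adjusted p = 0.0477), and leaving out unc-37 replicate 3 gave only his-35 (limma adjusted p = 0.0319). Across these 6 fits the change of his-4 ranged from 0.43 to 0.70, that of his-62 from 0.41 to 0.56 and that of his-68 from 0.34 to 0.40.

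Core genes whose probe sets have a plain name also lay above 0. A plain name does not exclude a shared signal. Of the 24 probe sets described below that name several genes, 2 have a plain name: 175461_at (H3, change -0.06 ± 0.22 SE) and 187410_at (H4, 0.15 ± 0.08 SE). The H3 one was dim, with means of 4.75 in wild type and 4.70 in unc-37. The median over all probe sets was 5.69 to 5.71 in the wild-type arrays. Its unc-37 arrays differed by an SD of 0.49. The 4 core genes with a probe set of a plain name, his-35, his-37, his-41 and his-67, had changes of 0.14 to 0.41 with a median of 0.31, against 0.32 for the 15 on _x_at probe sets. Over all genes, the median change of _x_at probe sets was -0.03 and that of plain ones -0.03. None of these 4 was called by limma, and for 3 the unadjusted p was below 0.05. The 3 called genes are all read by _x_at probe sets, and such probe sets do not tell those genes apart from near-identical copies. When the arrays were quantile normalised again, none of the 3 was called. The change of his-4 was then 0.59 (limma adjusted p = 0.0559), that of his-62 0.39 (0.105) and that of his-68 0.25 (0.174). The median change of the core genes was 0.23 against 0.32, and that of all 36 histone genes 0.095 against 0.15. Of the 19 core genes 18 lay above 0, with his-64 the exception at -0.0038.

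The 46 histone genes with no probe set of their own were seen only through 24 probe sets that name several genes, 8 of the 36 members being named there as well. Of these 24, 4 rose and none fell by limma, where 3.85% of all probe sets were called higher and 2.57% lower, and 17 were higher and none lower at an unadjusted p below 0.05, against 11.5% and 9.38% of all probe sets. The 4 were 2 that name only H2B genes (172685_x_at, 0.79 ± 0.15 SE, adjusted p = 0.0183, and 172874_x_at, 0.68 ± 0.09 SE, adjusted p = 0.00538) and 2 that name only H2A genes (172860_x_at, 0.43 ± 0.09 SE, adjusted p = 0.0244, and 172641_x_at, 0.43 ± 0.10 SE, adjusted p = 0.0493). The H2B probe set with the smaller of the first pair of changes read 7.53, 7.57 and 7.53 in wild type and 8.12, 8.19 and 8.35 in unc-37. The groups lay well apart and the wild-type arrays nearly coincided. The medians by class were 0.58 for 6 H2B, 0.39 for 5 H2A, 0.24 for 6 H3 and 0.37 for 6 H4 probe sets. The 1 that names both H2A and H2B genes was at 0.28, and it also carries 5 names outside the histone symbols used here. Since probes of near-identical genes can bind the same transcripts, these values are not independent of those of the members.

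Worm core histone genes lie in clusters, often as pairs read away from each other. In the cluster of his-1, his-2, his-3 and his-4, whose members all have a probe set of their own, the changes were 0.35, 0.32, 0.37 and 0.60. In the cluster of his-59, his-60, his-61 and his-62, the changes of his-59, his-61 and his-62 were 0.16, 0.26 and 0.49. In both the H2B gene had the highest change. The neighbours his-67 (H4) and his-68 (H2A) had 0.14 and 0.36, his-31 (H4) and his-32 (H3) 0.13 and 0.34, and his-35 (H2A) and his-41 (H2B) 0.41 and 0.35. Whether neighbours differed from each other was not tested.

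Of the 8 variants none was called by limma at the brightest probe set, and 1 was higher at an unadjusted p below 0.05. That one was his-72, an H3.3 gene, at 10.04, 10.08 and 9.73 in wild type and 10.29, 10.45 and 10.32 in unc-37. The groups did not overlap, and the change was 0.40 ± 0.12 SE (limma adjusted p = 0.0855). Its second probe set gave 0.38 ± 0.12 SE (limma adjusted p = 0.119), also without overlap. The other well known H3.3 gene, his-71, had a change of 0.11 ± 0.13 SE (limma adjusted p = 0.685), with wild-type levels of 7.51, 7.55 and 7.35 and unc-37 levels of 7.54, 7.84 and 7.37, of which replicate 2 alone lay above the wild-type range. The further H3 variants his-69, his-70, his-73 and his-74 had changes of -0.10 to 0.08, each with overlap. htas-1, an H2A variant of sperm chromatin, was at -0.11 ± 0.09 SE (limma adjusted p = 0.557). Its 3 unc-37 arrays lay just below the wild-type arrays, with means of 4.93 and 5.04.

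The probe sets of htz-1, the H2A.Z gene, disagreed. The brighter one, of the kind ending in _s_at, which can bind several transcripts, read 8.29, 8.50 and 8.54 in wild type and 8.67, 8.89 and 8.02 in unc-37. Replicate 3 of unc-37 was the lowest of all 6 arrays and replicates 1 and 2 the highest, so the groups overlapped (change 0.08 ± 0.20 SE, limma adjusted p = 0.864). The dimmer one, of the _x_at kind, read 7.80, 7.62 and 7.69 in wild type and 7.35, 7.13 and 7.26 in unc-37. It was called lower, at -0.46 ± 0.10 SE (limma adjusted p = 0.0300). No direction can be given for htz-1 from these 2 probe sets.

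**Figure D3:**
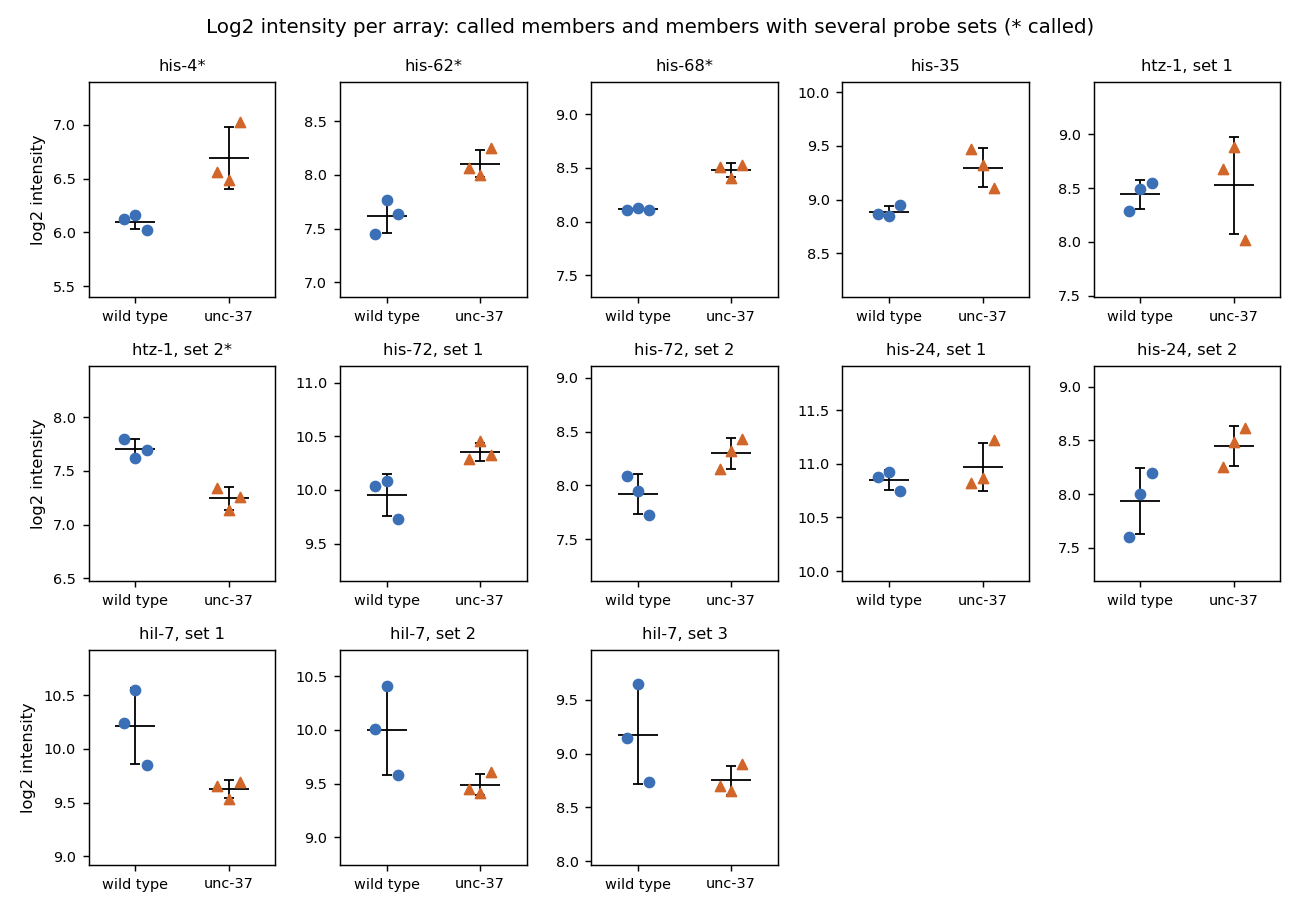
Log2 intensity per array (vertical axis, a span of the same height in each panel) for the called genes, his-35 and 4 genes with several probe sets, brightest first; circles are wild-type arrays, triangles unc-37 arrays, bars the mean ± SD, and an asterisk a call. The 2 htz-1 probe sets differ, with changes of 0.08 and -0.46, while the 3 of hil-7 are all below 0.

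Linker histone genes went both ways and none was called by limma: 5 of 9 had a change above 0 and the median was 0.0014. At an unadjusted p below 0.05, hil-2 was higher and hil-1 and hil-7 were lower. hil-7 read 10.24, 10.55 and 9.85 in wild type and 9.66, 9.53 and 9.69 in unc-37. Its wild-type arrays were spread by an SD of 0.35 and yet all lay above the unc-37 arrays, with a change of -0.59 ± 0.16 SE (limma adjusted p = 0.0778). Its other 2 probe sets gave -0.51 and -0.43, with overlap between the groups. Without wild-type replicate 3, the lowest of its wild-type arrays, hil-7 was called lower (change -0.77, limma adjusted p = 0.0126), and with array weights as well (-0.62, 0.0332). hil-1 read 6.23, 6.07 and 6.0 in wild type and 5.85, 5.73 and 5.80 in unc-37, without overlap (change -0.30 ± 0.10 SE, limma adjusted p = 0.109). hil-4 and hil-6 were also below wild type in every unc-37 array, at -0.19 and -0.21 (limma adjusted p = 0.258 and 0.242), so that 4 of 9 linker genes lay below without overlap, where 13.7% of all genes did.

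hil-2 read 8.11, 8.39 and 8.29 in wild type and 8.60, 8.43 and 8.54 in unc-37, with every unc-37 array above (change 0.26 ± 0.10 SE, limma adjusted p = 0.197). hil-5 did so too by a small margin, at 0.13 ± 0.08 SE (limma adjusted p = 0.435). hil-3 varied most within unc-37, at 9.73, 9.29 and 10.42, on both sides of the wild-type values of 9.53 to 9.78. hil-8 was at 0.0014 ± 0.11 SE. his-24, the linker gene with a his symbol, had a change of 0.12 ± 0.13 SE at its brighter probe set (limma adjusted p = 0.651), where unc-37 replicates 1 and 2 fell within the wild-type range. Its dimmer probe set gave 0.51 ± 0.16 SE (limma adjusted p = 0.114), with 7.60, 8.00 and 8.20 in wild type and 8.25, 8.48 and 8.61 in unc-37.

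Genes that work with histones are set beside the shares over all genes, 3.94% called higher and 2.81% lower, and 11.5% and 9.91% at an unadjusted p below 0.05. Of 14 genes of histone supply (chaperones and cdl-1, which encodes the protein that binds the stem-loop of histone messages) none was called by limma, and 1 was higher and none lower at an unadjusted p below 0.05; their median was 0.0025. cdl-1 was at -0.16 ± 0.09 SE (limma adjusted p = 0.358), and spt-16, of the FACT chaperone, was at 0.29 ± 0.10 SE (0.150). The genes of the centromeric H3, hcp-3 and cpar-1, were at -0.12 and 0.02 (limma adjusted p = 0.534 and 0.952). None of 30 S-phase genes was called by limma, and none had an unadjusted p below 0.05 in either direction. Their median was -0.04, and pcn-1, the sliding clamp of replication, was at -0.24 (limma adjusted p = 0.286). None of 20 genes of mitosis was called by limma, and 1 was higher and 3 lower at an unadjusted p below 0.05. The one higher was bir-1, the survivin homologue, at 0.36 (limma adjusted p = 0.103). The 3 lower were cyb-3, a cyclin B gene, at -0.64 (limma adjusted p = 0.117), zen-4, a kinesin gene of cytokinesis, at -0.54 (0.113) and plk-1, the Polo kinase gene, at -0.42 (0.228). Of 31 genes of histone modification, 1 rose, the deacetylase gene sir-2.1 (0.75 ± 0.15 SE, limma adjusted p = 0.025), and none fell, with a median of 0.03. At an unadjusted p below 0.05, 4 were higher, a share near that of all genes, and none was lower, against 9.91% of all genes.

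**Figure D4:**
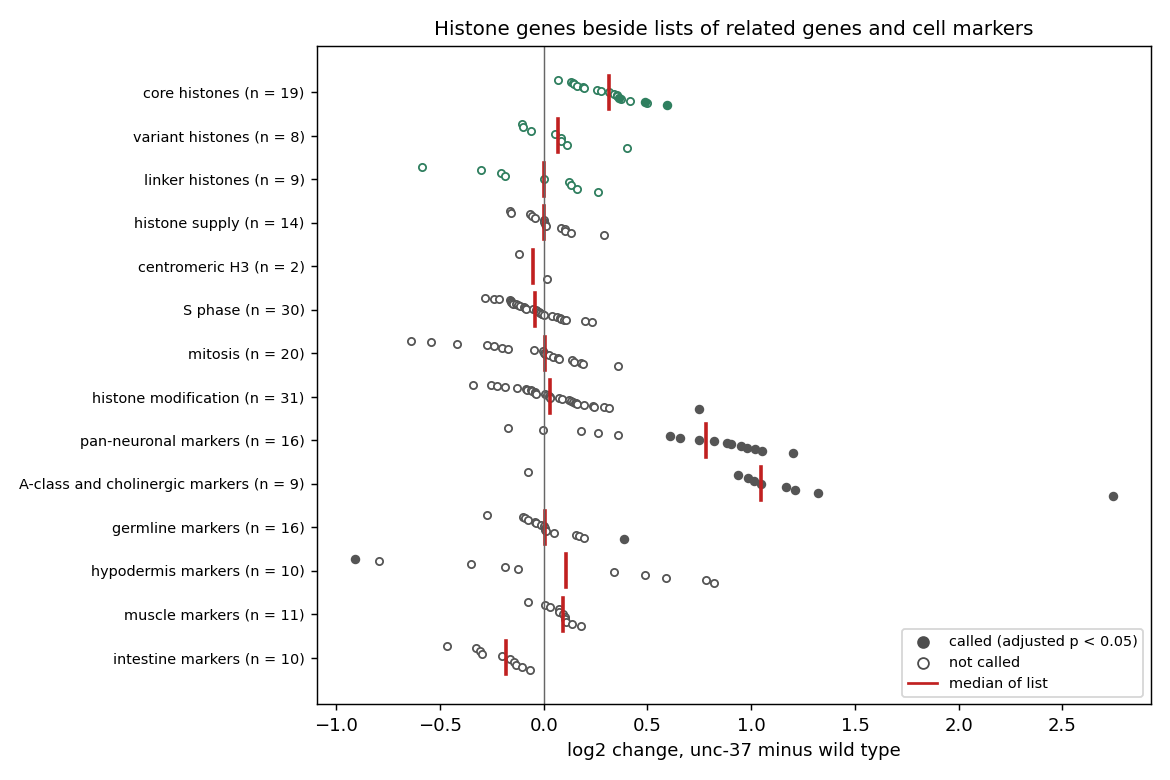
Log2 change between unc-37 and wild type (horizontal axis) of each gene in the histone groups and in lists of related genes and cell markers; filled points were called and red bars are medians. The core histone median of 0.32 lies above those of the S-phase (-0.04) and germline (0.0037) lists and below those of the pan-neuronal (0.78) and cholinergic (1.05) lists.

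Several markers moved in the same arrays. The pan-neuronal markers rose in 11 of 16 genes and fell in none, with a median of 0.78, and their summed linear intensity was 7467 to 8872 in wild type and 13044 to 13876 in unc-37. All 36 histone genes had a change below that median. Of the A-class and cholinergic markers 8 of 9 rose, with sums of 1438 to 1973 in wild type and 3904 to 4393 in unc-37. Among them were unc-4 (2.74 ± 0.31 SE, limma adjusted p = 0.00245) and del-1 (1.21 ± 0.10 SE, 0.000996). del-1 stands in this list as a gene of cholinergic neurons, so its rise is not read as a sign of A-class RNA. unc-4 is the gene whose promoter drove the tag. The part of these shifts in the histone values was not tested.

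Of the markers of other tissues, read against the same shares over all genes, 1 rose and 1 fell. Of 16 germline markers, from a tissue that divides in these larvae, deps-1 rose (0.39 ± 0.08 SE, limma adjusted p = 0.0278) and none fell, with sums of 1145 to 1304 in wild type and 1190 to 1218 in unc-37. Of 10 hypodermis markers, dpy-13, a cuticle collagen gene, fell by 0.91 on the log2 scale (limma adjusted p = 0.0451) and none rose, and the sums were 13910 to 18740 and 9136 to 14636. These markers went both ways: 5 of 10 had a change above 0, the median was 0.11, and 4 were higher and 1 lower at an unadjusted p below 0.05. The 4 were dpy-2 at 0.82 (limma adjusted p = 0.0527, without overlap), dpy-8 at 0.78 (0.123), dpy-7 at 0.59 (0.203) and lin-26 at 0.49 (0.166). None of 11 muscle markers was called by limma or had an unadjusted p below 0.05, as shown by tni-1 at 0.18 (adjusted p = 0.593), with sums of 12369 to 15392 and 13582 to 15226. Of these 11, 10 had a change above 0, with a median of 0.095, and in all 11 the groups overlapped. None of 10 intestine markers was called by limma, 1 was lower at an unadjusted p below 0.05, asp-1 at -0.33 (adjusted p = 0.220), and the sums were 10124 to 12083 and 7359 to 10519. All 10 intestine markers had a change below 0, with a median of -0.18. The median over them of the difference from the wild-type mean was -0.14, -0.04 and -0.52 in unc-37 replicates 1, 2 and 3, lowest in replicate 3, where the core histone genes were highest. For muscle markers it was 0.04, 0.24 and -0.03, also lowest there. The pan-neuronal markers, at 0.70, 0.67 and 0.79, were highest in replicate 3. So were the A-class and cholinergic markers, at 1.13, 1.09 and 1.19. The part of germline, hypodermis, muscle and intestine in the histone values was not tested. The unc-37 transcript itself was at 8.49 ± 0.04 (SD) in wild type and at 8.99 ± 0.10 in unc-37, and it rose by 0.50 ± 0.09 SE (limma adjusted p = 0.0159); what the e262 allele alters is not in the labels, so this level does not check them.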

How the data were processed

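The deposited values were intensities per probe set on a linear scale, made by the authors with RMA, per the submitters' processing notes, with a version not given in the sources used here. In RMA the background is subtracted, the arrays are quantile normalised and the probes of a set are summarised. Quantile normalisation gives the arrays a like distribution, which can hide a shift shared by most genes. The linear scale was read from the highest value per array, 12124 to 15148. Intensities were log2 transformed and tested, two-sided, with limma 3.58.1 (lmFit, eBayes) under R 4.3.3, Benjamini-Hochberg adjusted over 22548 probe sets. Of these, 20766 name 1 gene. Exact permutation of 3 against 3 arrays cannot go below p = 0.1. On simulated data for this comparison over 22548 probe sets, the fit recovered 23.9% of 67 changes of 1.5-fold, 85.5% of 62 of 2-fold and 97.2% of 71 of 4-fold, with 5 false calls among 143. In the data 867 probe sets were called higher and 580 lower. The adjusted p depends on how many probe sets change, so these shares do not give the power of the fit on the data.

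The members, lists and tests were chosen with earlier results of these data known. Every histone member could be named, and from each other list up to 2 called genes of smallest p per direction, or otherwise the gene of smallest p. Named outside that rule, for what they encode, were cdl-1, cpar-1, unc-37 and the unc-4 promoter's gene, and, chosen after their values were seen, cyb-3, zen-4, plk-1, dpy-2, dpy-8, dpy-7 and lin-26. Histone classes were assigned from the standard naming, since no table used here gives them. Alternatives were another prior, array weights, filters, normalisations, thresholds, probe set rules, a replicate block and single arrays left out. No sequence was used. The plots were drawn with matplotlib 3.10.9.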

Additional observations from a re-analysis of the deposited data

How the results depend on the processing

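The count of histone genes called higher, 3 in the reported fit, was 1 when the prior variance followed intensity, 0 when quantile normalised again, 7 at an adjusted p below 0.1, 1 at a fold of at least 1.5, 0 on plain probe sets, which 16 of 36 genes have, and 0 to 1 with single arrays left out. The count called lower, 0 in the reported fit, was 1 with array weights, 1 at an adjusted p below 0.1 (hil-7 in both) and 0 to 1 with single arrays left out. The other alternatives left both counts within 1.5 times. With the replicate block the count called higher was 0, and his-4, his-62 and his-68 had adjusted p = 0.0942, 0.0863 and 0.118; same-numbered arrays deviated in opposite ways (r = -0.19, -0.14 and -0.10) and 0 of 6 arrays correlated best with its own number, so the numbers were not taken as pairs. Changes turned sign in 7 of 36 genes: when quantile normalised again for his-64 (-0.0038), htz-1 (-0.018) and his-74 (-0.016), with the mean of the probe sets for htz-1 (-0.19), with array weights for hil-8 (-0.0054), and with single arrays left out for hil-3 (-0.14 to 0.42), hil-8 (-0.080 to 0.080), his-24 (-0.0075 to 0.20), his-71 (-0.013 to 0.22), his-74 (-0.050 to 0.17) and htz-1 (-0.095 to 0.34). The cause was not tested. Of all genes, 675 were called higher in the reported fit, 1043 with array weights, 1069 at an adjusted p below 0.1 and 277 to 811 with single arrays left out. The check for values already on a log scale did not apply. Differences near 1.5-fold or less are at the limit of what 3 arrays per group can show.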
